A study of Canis lupus familiaris with 34 samples.

Results

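The macrophage genes of the canine mitral valve were followed in bulk RNA-seq counts as a set of 10 genes: CSF1R, CD68, CD14, CD163, MRC1, MARCO, C1QA, C1QB, C1QC and TREM2. They were taken by symbol as widely used macrophage markers, by a rule that uses no measured value, though with earlier results of these data known. All 10 were listed among 23768 features and belonged to the 19568 features tested, which had 100 or more counts over all dogs. For CD163 the canine RefSeq feature was taken, since it was listed beside a feature aligned from human RefSeq, and for the other 9 genes a human-aligned feature was the one listed. The valves came from 34 privately owned Cavalier King Charles Spaniels, a breed prone to myxomatous mitral valve disease (MMVD). A total of 19 dogs, 10 females and 9 males, were labelled 10y-noCHF and had reached about 10 years of age with no or milder MMVD and without congestive heart failure (CHF). The other dogs, 15 in all with 6 females, were labelled 10y-MMVD-CHF and had severe MMVD that had progressed to CHF at a similar age. Neither group carried an experimental treatment or allele in the labels. The paper names a response to diuretics among its grounds for the CHF diagnosis. Medication is not in the labels and cannot be told apart from CHF status here. Disease varied within the 10y-noCHF group from none or very mild to advanced. The diseased valve was thus compared mainly with less diseased valves rather than with healthy ones.

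Macrophages are phagocytic cells of the innate immune system, found in small numbers among the interstitial and endothelial cells of normal heart valves. They depend on signals through the CSF1 receptor for survival, take up modified proteins and lipids through scavenger receptors, and are a main source of C1q, the recognition molecule of the classical complement pathway, which tags debris and dying cells for uptake. A valve homogenate mixes their RNA with that of all other valve cells. A change in the number of macrophages and a change in RNA per macrophage thus cannot be told apart in these data.

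Levels are given as CPM, counts scaled to a common library size with TMM in edgeR. Each dog had between 46185256 and 82361245 counts in total, with medians of 59645613 without CHF and 62167469 with CHF. Groups were compared with edgeR's quasi-likelihood test with sex in the fit, and a Benjamini-Hochberg false discovery rate (FDR) below 0.1 over all 19568 features was the threshold. The p-values measure the spread between dogs, each of which gave 1 library. The libraries of 2 dogs with CHF stood apart from the rest. CAV614 had the highest summed level of red blood cell markers (2168 CPM) and CAV1047 the highest summed level of cardiomyocyte markers (57594 CPM). The CHF differences of CSF1R, CD14, CD163, MRC1 and C1QB and the gene pairs are given with and without these 2 dogs. Of the 10 other settings tried, leaving out these dogs gave the largest CHF difference for CSF1R, CD163, MRC1 and C1QB. It did not for the other genes. Over the 10 settings, the log2 fold change was 0.19 to 0.26 for CD68, 0.13 to 0.21 for C1QA and 0.24 to 0.30 for C1QC. That of MARCO was 1.06 to 1.57 and that of TREM2 0.49 to 0.55. Levels are not ranked between genes, because the human-aligned features cover whole aligned spans with introns while the CD163 feature covers exons only.

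All 10 macrophage genes had a fitted log2 fold change above 0 in 10y-MMVD-CHF, from 0.13 for CD163 to 1.13 for MARCO, with a median of 0.22. The median over all 19568 features was 0.01, and 52.6% of them were above 0. None of the 10 genes passed the FDR threshold in edgeR, which called 23 features (0.118% of those tested), and none did in DESeq2, which called 64 (0.327%). Of the 10 genes, CD14 and MARCO had an unadjusted p below 0.05 in edgeR, a level that 6.31% of all features reached (2.8% higher and 3.51% lower in 10y-MMVD-CHF). Both were also below 0.05 in DESeq2, where 7.04% of features were. The genes also varied together from dog to dog, so the 10 directions are not 10 separate observations.

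**Figure D1:**
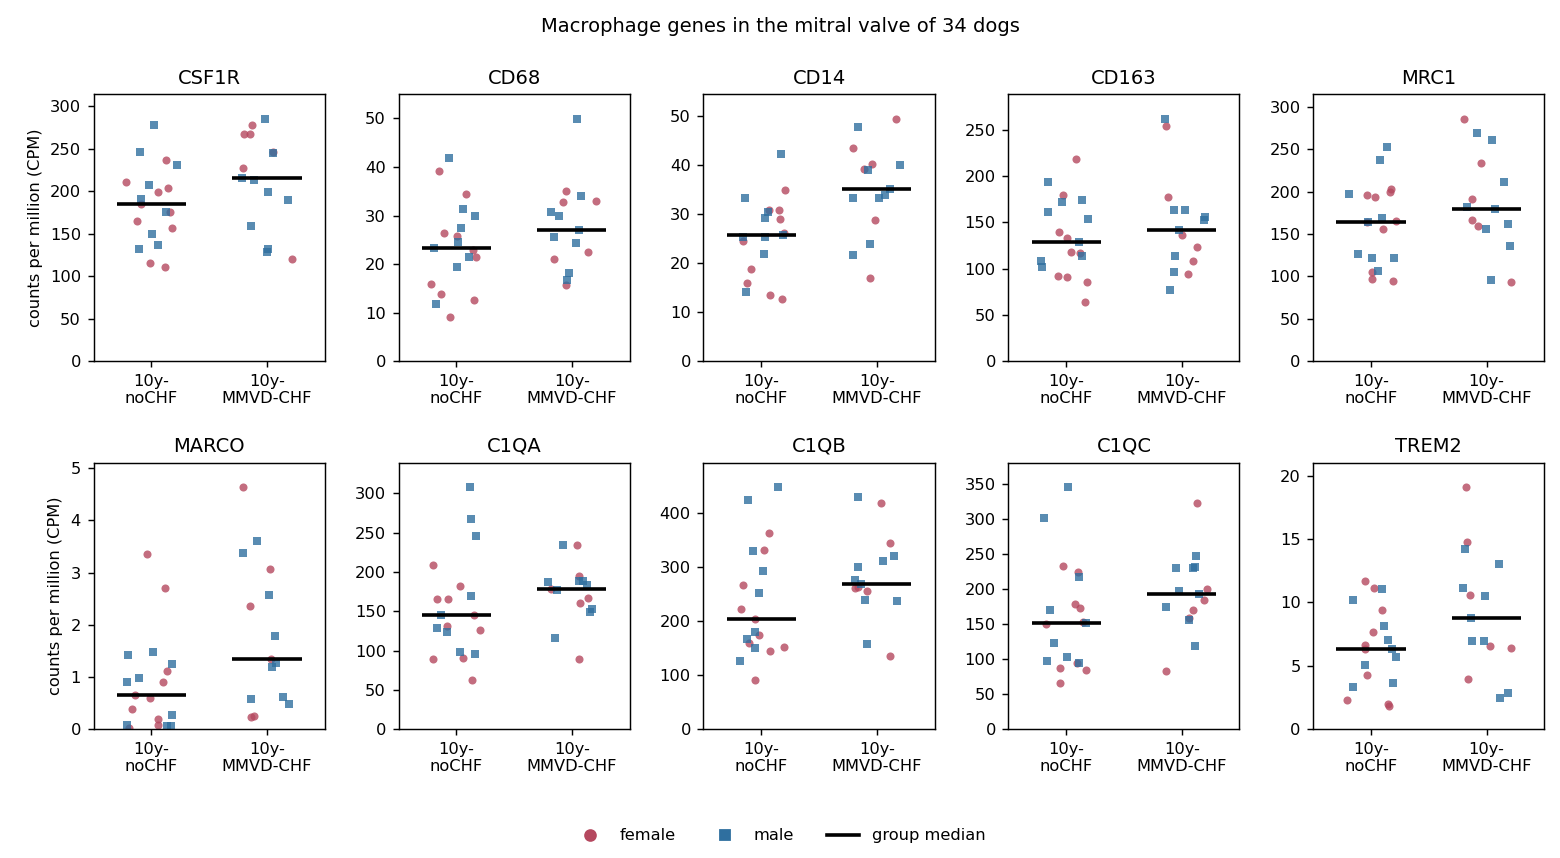
CPM of each macrophage gene (vertical axis, linear from 0) in each dog, with 10y-noCHF on the left and 10y-MMVD-CHF on the right of each panel, circles for females, squares for males and a black line for the group median. The median of CD14 was 25.8 CPM in 10y-noCHF and 35 CPM in 10y-MMVD-CHF, and in all 10 panels the groups overlapped.

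CSF1R encodes the receptor for CSF1 and IL-34 on which most macrophages depend. It was measured at 111 to 278 CPM in 10y-noCHF, with a median of 185, and at 120 to 285 CPM in 10y-MMVD-CHF, with a median of 215. Of the 15 dogs with CHF, 11 lay above the 10y-noCHF median, but 17 of 19 dogs without CHF lay within the range of those with CHF. The log2 fold change was 0.20 (SE 0.130, edgeR p = 0.134, FDR = 0.851). CSF1R had the smallest relative range of the set, 2.57-fold between the lowest and the highest dog. The lowest value in 10y-MMVD-CHF belonged to CAV1047, and without CAV1047 and CAV614 the log2 fold change was 0.25 (edgeR p = 0.0630).

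CD68 encodes a lysosomal membrane glycoprotein of phagocytes. Its level ran from 9.13 to 41.8 CPM with a median of 23.2 in 10y-noCHF, and from 15.8 to 49.97 CPM with a median of 27 in 10y-MMVD-CHF. The group medians lay close together beside a 5.47-fold range over all dogs. Its log2 fold change was 0.21 (SE 0.176, edgeR p = 0.249, FDR = 0.908), and 0.13 without CAV1784, the highest dog.

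CD14 encodes the co-receptor that hands lipopolysaccharide to TLR4, and is abundant on monocytes and many tissue macrophages. It lay between 12.7 and 42.2 CPM in 10y-noCHF, with a median of 25.8, and between 17 and 49.5 CPM in 10y-MMVD-CHF, with a median of 35. Of the 15 dogs with CHF, 12 exceeded the 10y-noCHF median. The 4 lowest dogs of all were without CHF, yet 15 of 19 dogs without CHF fell within the range of those with CHF. The fold difference was 1.37 (95% interval 1.12 to 1.68), a log2 fold change of 0.45 (SE 0.151, edgeR p = 0.00485, FDR = 0.480). CD14 ranked 192 among all features by p. Its unadjusted p stayed below 0.05 under all 10 other settings tried, of which the human-aligned CD163 feature repeats the main fit for CD14. It also did when each of the 34 dogs was left out in turn (edgeR p from 0.00126 to 0.0131). The lowest FDR over all of these fits, 0.209 in limma voom with sample weights, was still above the threshold. Without CAV614 and CAV1047 the log2 fold change was 0.48.

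The set held 3 scavenger receptors. CD163, the haptoglobin-haemoglobin receptor, had 64.1 to 218 CPM with a median of 128 in 10y-noCHF and 76.4 to 262 CPM with a median of 142 in 10y-MMVD-CHF. It had the smallest CHF difference of the 10 genes, a log2 fold change of 0.13 (SE 0.159, edgeR p = 0.406), and its value was 0.07 when the human-aligned CD163 feature was used instead. Without CAV614 and CAV1047 the log2 fold change was 0.22 (edgeR p = 0.159). Without 10y-MMVD-CHF female CAV1876, whose level of 254 CPM was next to the highest, it was 0.03, and without the highest, CAV1784, 0.06. MRC1, the mannose receptor CD206, had 94.3 to 253 CPM with a median of 165 in 10y-noCHF and 93.2 to 286 CPM with a median of 180 in 10y-MMVD-CHF. All 19 dogs without CHF lay within the range of the dogs with CHF, and the log2 fold change was 0.19 (SE 0.152, edgeR p = 0.210). Without the highest dog, CAV1872, it was 0.12, and without CAV614 and CAV1047 it was 0.26 (edgeR p = 0.0997).

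MARCO, a class A scavenger receptor best known from alveolar, splenic marginal zone and peritoneal macrophages, had the fewest counts of the set. They ran from 2 to 338 per dog and summed to 2784, against 16317 for TREM2, the next lowest of the set. All 34 MARCO counts were even, against 14 to 27 of 34 for the other 9 genes. Both reads of a pair were counted. The lowest dog, CAV1790, had 2 counts. There were 6 dogs with 10 counts or fewer, and 5 of those were without CHF. Levels were 0.032 to 3.35 CPM with a median of 0.647 in 10y-noCHF and 0.242 to 4.64 CPM with a median of 1.34 in 10y-MMVD-CHF. The fold difference was 2.18 (95% interval 1.09 to 4.35), a log2 fold change of 1.13 (SE 0.508, edgeR p = 0.0335, FDR = 0.757). The highest dog was the 10y-MMVD-CHF female CAV1519, and without it the log2 fold change was 0.95 and p was 0.0838 in edgeR. Leaving out CAV1259, CAV1784 or CAV2102, all 10y-MMVD-CHF, also put it above 0.05 (p = 0.0530, 0.0550 and 0.0577 in edgeR), and leaving out any of the remaining 30 dogs did not.

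The 3 chains of C1q are encoded side by side on the minus strand of chromosome 2 in canFam4, with C1QB at 76042727 to 76047616, C1QC at 76052445 to 76056621 and C1QA at 76060298 to 76063162. C1QB, the most counted gene of the set, had 92.2 to 449 CPM with a median of 205 in 10y-noCHF and 136 to 430 CPM with a median of 269 in 10y-MMVD-CHF. C1QA had medians of 145 and 178 CPM and C1QC medians of 151 and 193 CPM, in the same order of groups. For each chain 13 of 15 dogs with CHF lay above the 10y-noCHF median, while the highest dog of each chain was without CHF. The log2 fold changes were 0.14 (SE 0.163) for C1QA, 0.24 (SE 0.183) for C1QB and 0.25 (SE 0.192) for C1QC, with edgeR p of 0.384, 0.20 and 0.205. Without the 10y-MMVD-CHF female CAV1196 the values were 0.09 for C1QA and 0.15 for C1QC, and without the 10y-noCHF male CAV743 that of C1QA was 0.22. Without CAV614 and CAV1047 the log2 fold change of C1QB was 0.29. The 3 chains assemble into 1 protein, so their values are 3 readings of a shared unit.

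TREM2 encodes a lipid-sensing receptor that signals through the adaptor DAP12 (TYROBP). The feature of that name had 1.86 to 11.7 CPM with a median of 6.36 in 10y-noCHF and 2.45 to 19.1 CPM with a median of 8.78 in 10y-MMVD-CHF. The 4 highest dogs were all 10y-MMVD-CHF, CAV1784, CAV614, CAV1519 and CAV1196, and 16 of 19 dogs without CHF lay within the range of the dogs with CHF. The log2 fold change was 0.50 (SE 0.268, edgeR p = 0.068, FDR = 0.810). Its p fell below 0.05 when any 1 of 7 dogs was left out, 4 of them without CHF (p from 0.0334 to 0.0482 in edgeR), and not when any of the other 27 was. The level spanned 10.3-fold between dogs, more than that of the 8 genes other than MARCO.

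The place of the TREM2 feature does not match the canine RefSeq annotation of the same assembly. The feature lies on chromosome 12 at 10112139 to 10116555, within the protein-coding gene LOC119863908, while RefSeq places TREM2 at 10104147 to 10108997. The feature named TREML1 lies at 10104350 to 10108661, on the RefSeq TREM2 gene. It had a median of 1.43 CPM in 10y-noCHF and 2.35 CPM in 10y-MMVD-CHF, and its log2 fold change was 0.15 (SE 0.335, edgeR p = 0.667). The median Spearman correlation of the TREM2 feature with the other 9 genes was 0.61, and that of the TREML1 feature with the 10 genes was 0.31. Which of the 2 features holds canine TREM2 was not settled here, and all TREM2 values given here are those of the feature of that name.

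**Figure D2:**
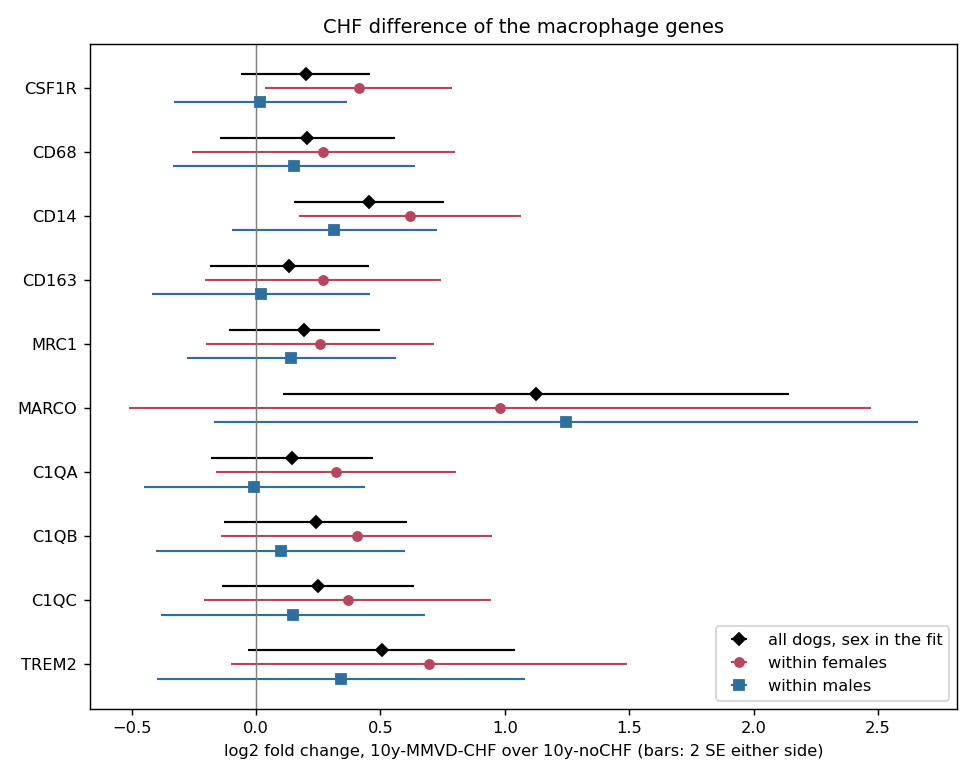
Fitted log2 fold change of each macrophage gene in 10y-MMVD-CHF over 10y-noCHF (horizontal axis), over all dogs with sex in the fit (black diamonds), within females (red circles) and within males (blue squares), with bars of 2 SE to each side. Over all dogs the 10 values run from 0.13 for CD163 to 1.13 for MARCO, and the bars of CD14 and MARCO do not reach 0.

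For sex itself, no macrophage gene had an unadjusted p below 0.05 in edgeR or DESeq2, a level that 2.98% of all features reached in edgeR and 3.43% in DESeq2, and none passed the FDR threshold, as 0.143% and 0.189% did, and the smallest edgeR p was 0.182 for C1QA (log2 fold change of 0.22 in males over females). For the interaction of CHF and sex, 9 of 10 values were negative, which means a smaller CHF difference in males, beside 50.6% of all features, and the median was -0.28. Lists of other cells went both ways. Negative values were found for 8 of 8 valve interstitial and fibroblast markers (median -0.26) and 7 of 7 T cell markers (median -1.67). They were fewer among other lists, with 7 of 19 cardiomyocyte (median 0.07), 2 of 6 mast cell (median 0.58) and 0 of 4 adipocyte markers (median 0.40). None of the 10 had an interaction p below 0.05 in edgeR or DESeq2, against 6.02% and 6.55% of all features. At FDR 0.1 edgeR called 0 features, with 1178 at an unadjusted p below 0.05, and DESeq2 called 3 (0.0153%). CSF1R had the lowest, with a log2 fold change of 0.41 within females (edgeR p = 0.0352, FDR = 0.431) and 0.02 within males, and an interaction p of 0.133 in edgeR. CD14 had 0.62 within females (edgeR p = 0.00894, FDR = 0.313) and 0.32 within males (p = 0.136). Without CAV614 and CAV1047 the interaction p of CSF1R was 0.0343. With the mean of the cardiomyocyte markers as a covariate, the smallest interaction p among the 10 genes was 0.276.

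The macrophage genes varied more between dogs of the same group than most features. Their SD of log2 CPM within groups that share CHF status and sex was 0.39 for CSF1R, 0.47 to 0.59 for CD14, MRC1, CD163, C1QA, CD68, C1QB and C1QC, 0.86 for TREM2 and 1.64 for MARCO. The median over all 19568 features was 0.33, and over the 16208 features with a mean of at least 1 CPM it was 0.27. A difference of the size fitted for CD163 or C1QA was below the SE of its own fit.

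Much of this spread was shared. CAV1731, a 10y-noCHF female, was among the 5 lowest dogs for all 10 genes, and CAV748 of the same group for 9 of them. CAV1047, a 10y-MMVD-CHF female, was among the 5 lowest for 7 genes, and CAV1114 and CAV285, both 10y-noCHF, for 6 each. At the other end CAV1784, a 10y-MMVD-CHF male, was among the 5 highest for 8 genes, and the 10y-noCHF male CAV743 and the 10y-MMVD-CHF female CAV1196 for 6 each. The summed level of the 10 genes ran from 518 CPM in CAV1731 to 1878 CPM in CAV743, which were both without CHF. Its median was 1088 CPM in 10y-noCHF and 1300 CPM in 10y-MMVD-CHF.

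**Figure D3:**
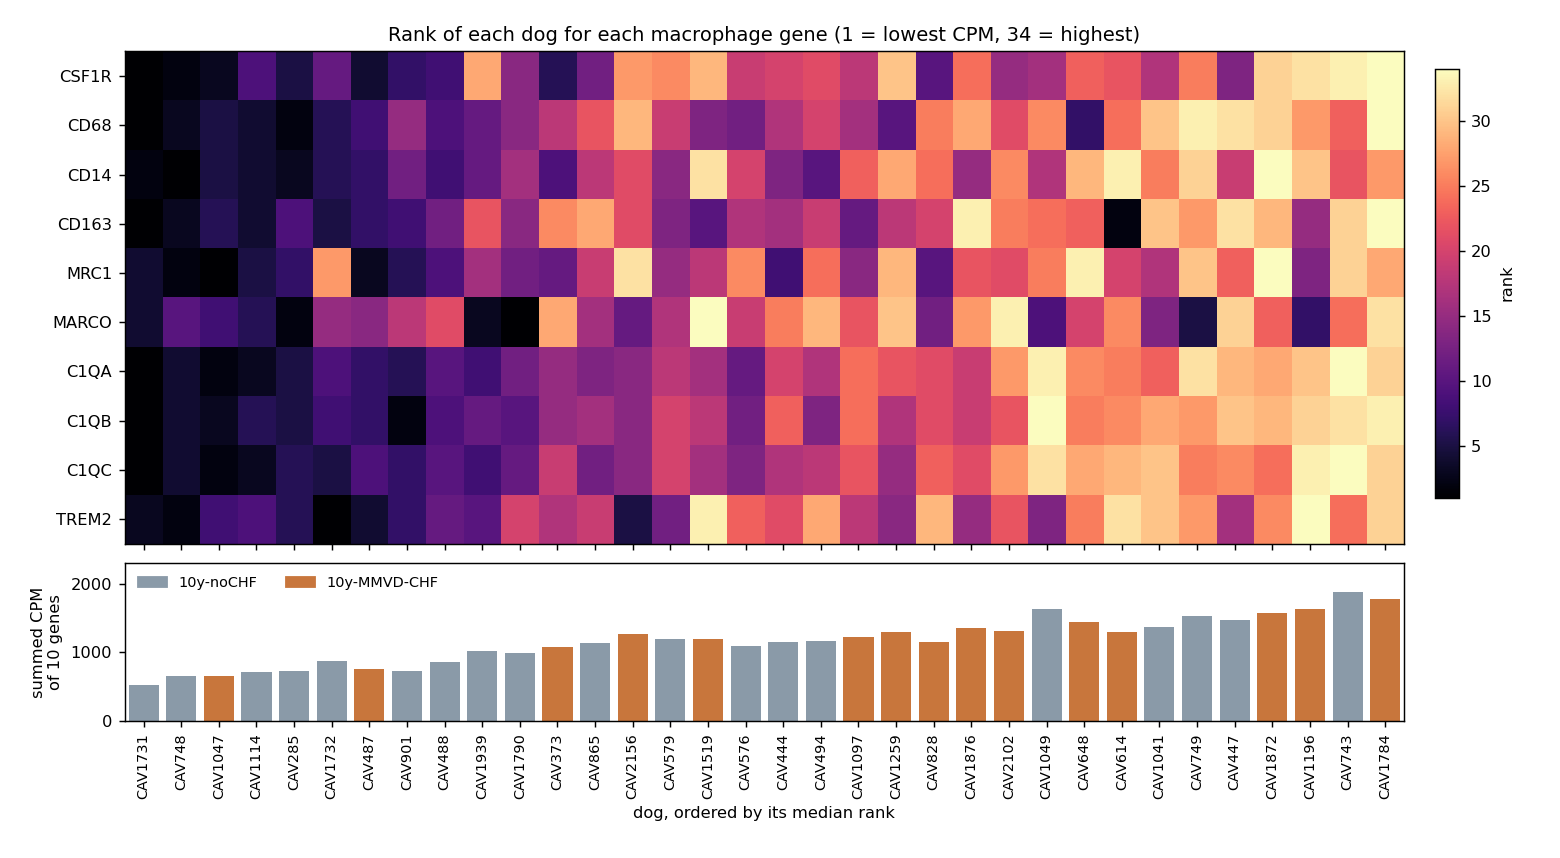
Rank of each dog for each macrophage gene (colour, 1 for the lowest CPM and 34 for the highest), with dogs ordered by their median rank, above the summed CPM of the 10 genes per dog in grey for 10y-noCHF and orange for 10y-MMVD-CHF. CAV1731 on the left is dark in every row, and dogs of both groups lie at both ends, with sums from 518 to 1878 CPM.

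Over the 34 dogs all 45 pairs of genes had a positive Spearman correlation of log2 CPM, with a median of 0.66 and a range from 0.32 to 0.97. These are descriptions over dogs that share a scaling and a tissue mixture. With the means of group and sex removed, the median was 0.67, and without CAV614 and CAV1047 it was 0.66. The C1q chains were the most alike, at 0.97 for C1QA with C1QB, 0.96 for C1QA with C1QC and 0.96 for C1QB with C1QC. The SD of the log2 ratio of 2 of these chains was 0.165 to 0.178, against 0.315 for CD14 with CSF1R and 1.58 for C1QA with MARCO. MARCO was the least alike, with a median correlation of 0.40 with the other 9.

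Within 10y-noCHF the median over the 45 pairs was 0.74, and within 10y-MMVD-CHF it was 0.48. Pairs with CD163 and CD14 differed most in value. CD14 and CD163 had a correlation of 0.86 over the 19 dogs without CHF and 0.03 over the 15 dogs with CHF, and CD163 and TREM2 had 0.78 and 0.03. CD14 and CD68 had 0.88 and 0.29. The C1q chains stayed at 0.91 to 0.97 in both groups. Without CAV614 and CAV1047 the value within 10y-MMVD-CHF was 0.01 for CD14 with CD163, and the median over the pairs was 0.39, with 42 of 45 above 0. No test of this difference was made, and these pairs were singled out after their values were seen.

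**Figure D4:**
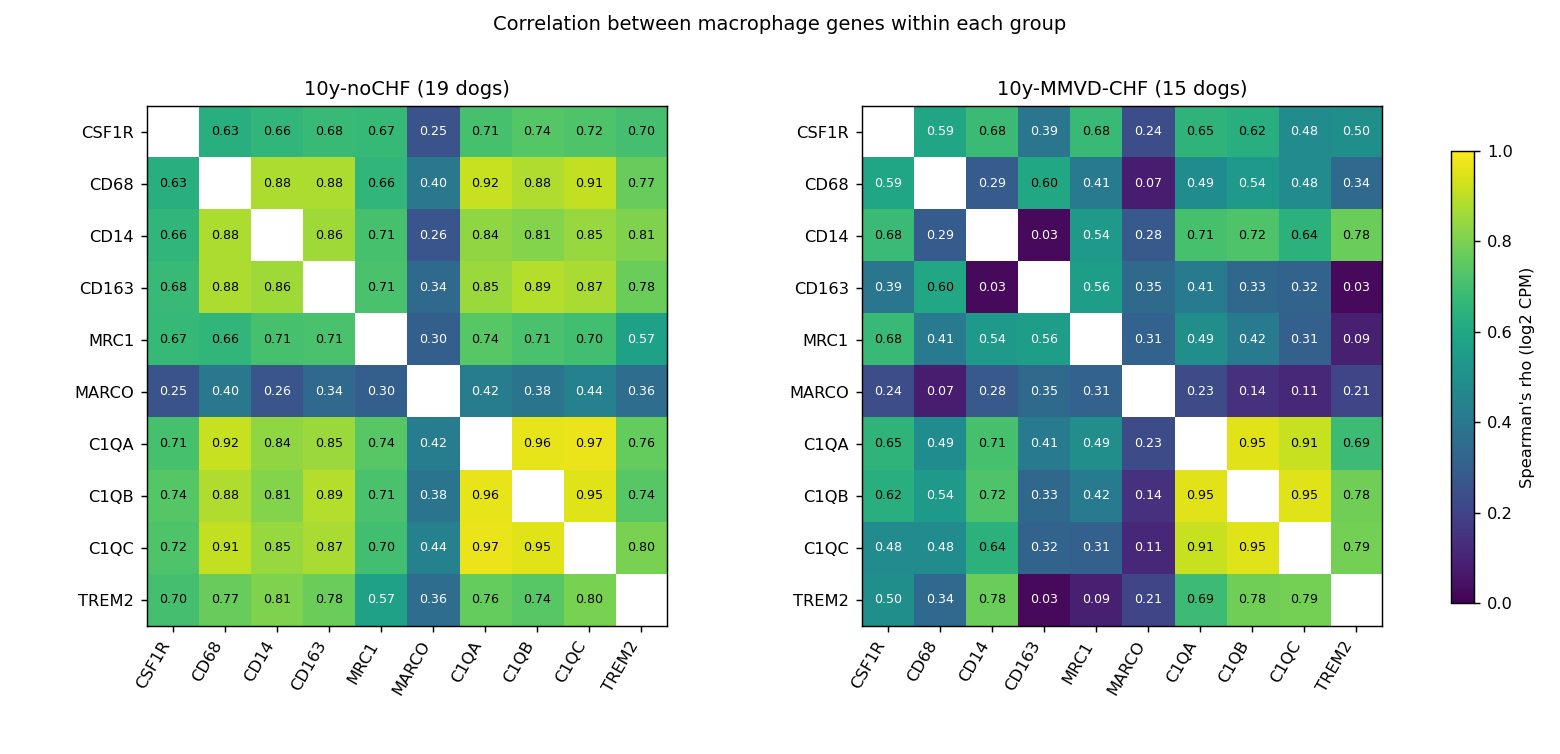
Spearman's rho of log2 CPM between each pair of macrophage genes (colour and printed value) over the 19 dogs of 10y-noCHF on the left and the 15 dogs of 10y-MMVD-CHF on the right. The C1q block is at 0.91 or above in both panels, while CD14 with CD163 is 0.86 on the left and 0.03 on the right.

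CAV614 was the clearest single case of genes that parted. Its CD163 level was 76.4 CPM, rank 2 of 34 from below, while its CD14 level was 47.8 CPM, rank 33, and its TREM2 level 14.2 CPM, rank 32. It was also the dog with the most red blood cell marker RNA, 2168 CPM summed over the list, against medians of 24.8 CPM in 10y-noCHF and 30.7 CPM in 10y-MMVD-CHF, and the part of this in its CD163 level was not tested. CAV648, a 10y-MMVD-CHF male, had a CD68 level of 16.7 CPM, rank 7, beside ranks of 20 to 33 for the other 9 genes. CAV749, a 10y-noCHF male, had 6 counts of MARCO, rank 5, with ranks of 25 to 33 elsewhere. These 3 dogs were picked after their values were seen.

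**Figure D5:**
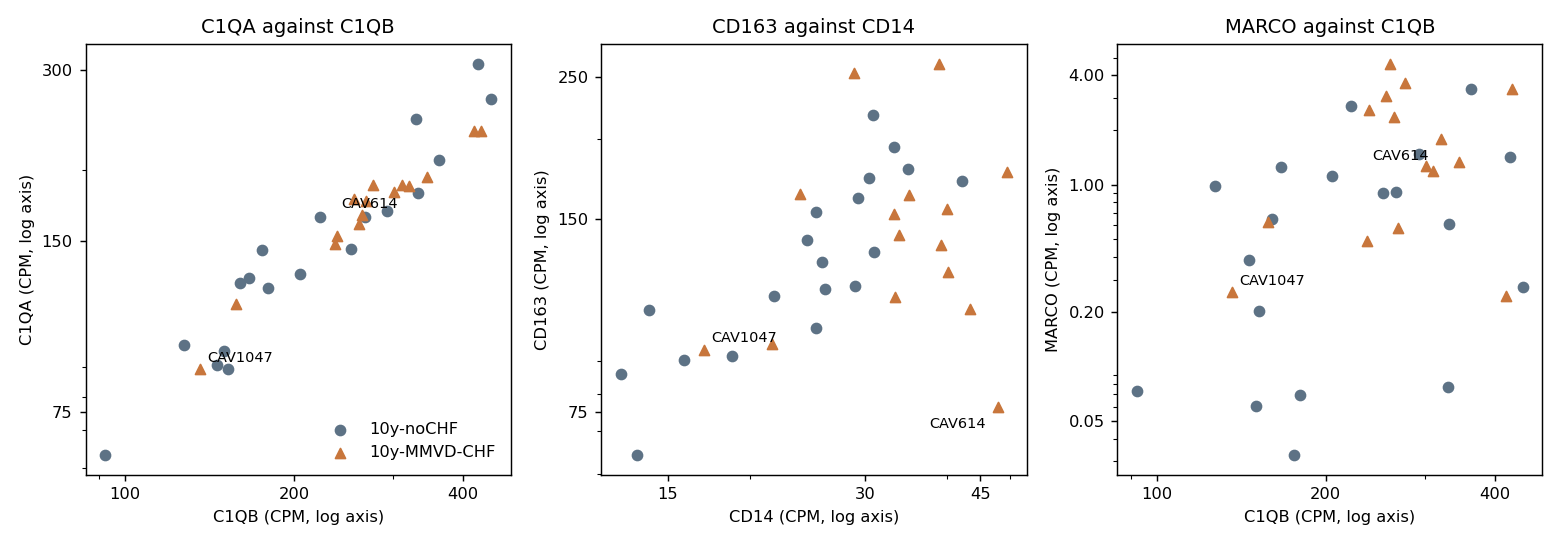
CPM of 2 genes in each dog on log axes, C1QA against C1QB, CD163 against CD14 and MARCO against C1QB, with circles for 10y-noCHF and triangles for 10y-MMVD-CHF. The C1q chains fall on a narrow line, CAV614 lies at the lower right for CD163 against CD14 (76.4 and 47.8 CPM), and MARCO spreads widely at any level of C1QB.

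The level of heart muscle markers ran against the set across dogs. The mean log2 CPM of 19 cardiomyocyte markers ran from -0.10 to 9.68 in 10y-noCHF and from 1.02 to 10.6 in 10y-MMVD-CHF. Fitted values were above 0 in 10y-MMVD-CHF for 17 of the 19 markers, beside 52.6% of all features. Only 1 of 19, MYL2, had an unadjusted edgeR p below 0.05, and it was lower. The Spearman correlation of each macrophage gene with the mean of the markers was negative, from -0.08 for MARCO to -0.48 for CSF1R. With the mean as a covariate, all 10 genes kept a positive CHF difference, at 0.49 for CD14 (edgeR p = 0.000970, FDR = 0.261), 1.2 for MARCO (p = 0.0271) and 0.55 for TREM2 (p = 0.0352), and none had an FDR below 0.1. Correlations with total counts were between -0.15 and 0.15.

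For each gene, the 3 features most like it over the 34 dogs were found among 15106 genes with a mean of at least 1 CPM. For CSF1R these were the leukocyte genes ITGAX (0.90), NCKAP1L (0.90) and LCP1 (0.88). CD68 was most like RAB5C (0.89), CTSA (0.89) and GNPDA1 (0.87), of which RAB5C acts in early endosomes and CTSA is a lysosomal protease. CD14 was most like 3 features of the high-affinity IgG receptor, FCGR1A (0.85), FCGR1CP (0.83) and FCGR1B (0.83), which can share reads. C1QA and C1QB had each other, C1QC and then the IgG receptor FCGR3A (0.89 and 0.87) as nearest genes, and C1QC had CCL15-CCL14 (0.87) in the third place.

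CD163 had CD163L1 first (0.99), CREG1 (0.84) and PPP6R1 (0.80). The CD163L1 feature covers 96.1% of the bases of the CD163 feature and a read was assigned to every feature it overlaps, so its value is largely a repeat count of the same reads. MRC1 had OGFRL1 (0.85), SKAP2 (0.82) and IL1RAP (0.81), and TREM2 had CD14 (0.80), ALOX5AP, the 5-lipoxygenase activating protein (0.79), and the cathepsin CTSH (0.78). MARCO had no close match, with SPRY1 (0.57), SOAT1 (0.57) and GSKIP (0.56) on top. Of the genes named as most like a macrophage gene, only CD14 had an unadjusted edgeR p below 0.05 for CHF.

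Other genes were read from lists of known markers and pathway partners. Of 20 other genes known from macrophages, 17 had a fitted value above 0, beside 52.6% of all features. None had an unadjusted edgeR p below 0.05, and the median log2 fold change was 0.11. The nearest was VSIG4, a complement receptor of resident macrophages, at 0.30 (SE 0.150, edgeR p = 0.0557), followed by CYBB, a subunit of the phagocyte oxidase, at 0.30 (p = 0.108). LAPTM5 and CTSS, the features with the most counts in the list, had 0.16 and 0.04. VSIG4, LAPTM5 and CYBB had median correlations of 0.74, 0.73 and 0.68 with the 10 genes, so their directions are not separate observations from those of the set. CYBB was among 2 of the 20 with an interaction p below 0.05, at -0.79 (SE 0.354, edgeR p = 0.0329, FDR = 0.817), and SIGLEC1 was the other, at -1.03 (edgeR p = 0.00752, FDR = 0.815).

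Genes of resident macrophages stood near 0. Of 10 in the list, 5 were above and 5 below 0, none had an unadjusted edgeR p below 0.05, and the median was -0.02. FOLR2 had -0.10 (SE 0.116), TIMD4 -0.12 (SE 0.170), SELENOP -0.04 and GAS6 0.01, although SELENOP and GAS6 are made by many other cells. CD209 had an interaction of 1.80 (SE 0.547, edgeR p = 0.00241, FDR = 0.815), with -0.97 in females and 0.83 in males.

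Of 9 genes of monocytes and recruited macrophages that were tested, 7 had a value above 0, beside 52.6% of all features, and the median was 0.30. CCR2, the chemokine receptor of classical monocytes, was the only one of them with an unadjusted edgeR p below 0.05. Its median was 6.86 CPM in 10y-noCHF and 11.7 CPM in 10y-MMVD-CHF, a log2 fold change of 0.58 (SE 0.255, edgeR p = 0.0287, FDR = 0.739), with 1.19 in females and 0.05 in males (interaction p = 0.0238, FDR = 0.815, edgeR). Lysozyme (LYZ) had 0.35 (p = 0.146) and CD300E 0.04, the latter on a feature that also overlaps other annotated loci, including LOC119873404 and LOC119873228. The feature named PLAC8 has the most counts of this list, but it spans other annotated genes, including SCD5 and SEC31A. Its own value is not read here, though it is among the 9 genes in the count and median above.

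Among 12 genes of lipid-associated macrophages, 6 were above and 6 below 0. The apolipoprotein APOC1 had a log2 fold change of 0.50 (SE 0.197, edgeR p = 0.0163, FDR = 0.652), and the tetraspanin CD9, which many cell types express, had -0.37 (SE 0.125, edgeR p = 0.00516, FDR = 0.480). The median correlation of CD9 with the 10 macrophage genes was -0.03. APOE had 0.25 (p = 0.0938) and the lysosomal protease CTSB 0.04. SPP1, osteopontin, had an interaction of -0.63 (edgeR p = 0.00850, FDR = 0.815).

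Around CSF1R, the growth factor CSF1 had -0.09 (SE 0.076, edgeR p = 0.226) and CSF2RB, the shared chain of the GM-CSF receptor, 0.12 (p = 0.492). FLT3, the related receptor of dendritic cell precursors, had 0.47 (SE 0.201, edgeR p = 0.0252, FDR = 0.729), and CSF3R had 0.96 with a wide SE of 0.634. FLT3 was the only gene of 8 in this list below 0.05. None of the 8 partners of CD14 was below 0.05, with a median of 0.09: TLR4 had 0.05, TLR2 0.05, IRAK4 0.12 (p = 0.110) and TICAM1 0.12.

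Among the 10 tested genes of the C1 complex, the classical pathway and C1q receptors, the central component C3 had the smallest p. Its median was 114 CPM in 10y-noCHF and 171 CPM in 10y-MMVD-CHF, and the log2 fold change was 0.63 (SE 0.20, edgeR p = 0.00361, FDR = 0.446). The C1 inhibitor SERPING1 had 0.08, C2 -0.16 and the endocytic receptor LRP1 0.15, with an interaction of -0.54 for LRP1 (edgeR p = 0.0464, FDR = 0.829). C4A and C4B had identical counts in every dog and were counted once.

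In the list for TREM2 and DAP12 signalling, SIRPB1 had 0.23 (SE 0.110, edgeR p = 0.0464, FDR = 0.780) on a feature that spans several annotated loci, and INPP5D, which dampens this pathway, had 0.24 (p = 0.0885). None of 12 other scavenger and endocytic receptors was below 0.05, the nearest being SCARB1 at 0.22 (p = 0.0501). OLR1 had -0.30, SCARA5 0.09 and LAMP1 -0.0011. None of the 8 tested genes in the list for haemoglobin clearance and iron was either. Haem oxygenase HMOX1 had -0.29 (edgeR p = 0.0881) and the ferritin light chain FTL 0.11. TNFRSF12A, a TNF receptor family gene that the list also holds, had -0.06. The FTL feature also overlaps LOC102155200 and a pseudogene. The feature named for haptoglobin, HP, had -1.19 (SE 0.666, edgeR p = 0.0833), but RefSeq lists no gene of that symbol and the feature lies largely on the RefSeq genes TXNL4B and LOC479668.

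The lists of other white blood cells were summed per dog. The T cell list had medians of 13.7 CPM in 10y-noCHF and 14.9 CPM in 10y-MMVD-CHF, and the neutrophil list 2.53 and 2.84 CPM. Of the neutrophil genes with the smallest p or the most counts, CEBPE had a log2 fold change of -0.74, MPO 0.50, LTF 0.13 and CXCR2 0.72. The dendritic cell list summed to 16.3 and 20.1 CPM, with CLEC9A at -0.31, CD1A at 0.26 and BATF3 at -0.09. The CD1A feature also spans CD1A8, CD1B and CD1C. RefSeq lists no gene named CLEC9A, and the feature of that name lies on CLEC1B. None of these lists held a gene with an unadjusted edgeR p below 0.05 for CHF. For the interaction with sex, 3 of 7 T cell genes were below 0.05 in edgeR, CD3D, CD2 and LCK, at -3.84, -1.46 and -1.89 (FDR = 0.815 for each), beside 6.02% of all features. So were 3 of 8 valve interstitial and fibroblast markers, COL1A1, COL1A2 and COL3A1, at -0.80, -0.67 and -0.81 (FDR of 0.815 to 0.817). These genes were named after their values were seen. The B cell list had medians of 70.6 and 31.6 CPM, carried mostly by the plasma cell gene JCHAIN (log2 fold change of -0.93, SE 0.435, edgeR p = 0.0405), and its highest sum was 444 CPM in the 10y-noCHF dog CAV576. The mast cell list summed to 43.9 and 47.7 CPM, of which GATA2, a factor also found in endothelial cells, had 39.1 and 43.5, in a feature that also overlaps LOC111089996. Of the 6 genes in this list, 2 were above and 4 below 0, with a median log2 fold change of -0.32 and values up to 0.59. The 2 with the smallest p were CPA3 at -2.53 (SE 0.944) and TPSAB1 at -2.56 (SE 0.955), with edgeR p of 0.0111 and 0.0112. Their medians were 0.335 and 0.0513 CPM for CPA3 in 10y-noCHF and 10y-MMVD-CHF, and 0.253 and 0.0354 CPM for TPSAB1. The CPA3 feature also overlaps the non-coding gene LOC119865416. RefSeq lists no gene named TPSAB1, and the feature of that name lies on LOC100049001.

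Beside the 6.31% of all features with an unadjusted edgeR p below 0.05 for CHF, there was 1 of 7 in the endothelial list (TEK, at 0.28), 1 of 6 in the smooth muscle list (MYH11, at -0.67) and 1 of 4 in the adipocyte list (PLIN1, at -1.28), and 1 of 5 tested red blood cell markers (ALAS2, at 0.88). The lists of valve interstitial cells and fibroblasts, of lymphatic endothelium and of Schwann cells held none, with DCN at -0.23 (SE 0.115, edgeR p = 0.0511) as the nearest. No gene of any list had an FDR below 0.1 for CHF.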

How the data were processed

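Mitral valve RNA from 34 dogs was sequenced, 19 of them 10y-noCHF and 15 of them 10y-MMVD-CHF, grouped by their labels. Per the authors, reads were aligned to canFam4 with STAR. The deposited values are whole-number counts for each feature from featureCounts 2.0.3, not normalized. The file header records that a read was assigned to each feature it overlapped, without strand, and that both reads of a pair were counted. The table has 1 column with counts that was not matched to a sample and was not used. Total counts per dog ranged from 46185256 to 82361245, and a gene with few counts, such as MARCO, was measured with little precision.

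The counts were tested with edgeR 4.0.16 in R 4.3.3 (quasi-likelihood, TMM, sex and CHF status as terms, 100 or more counts over all dogs, Benjamini-Hochberg FDR below 0.1), and the interaction in the same way. SE were derived from the test statistic and are approximate. Alternatives were DESeq2 1.42.0, limma 3.58.1 voom with sample weights, RLE and upper-quartile normalization, other filters, no sex term, a cardiomyocyte covariate, the human-aligned CD163 feature, leaving out CAV614 and CAV1047, and leaving out each dog. Correlations are Spearman's over log2 CPM.

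The genes, the lists and the tests were chosen with earlier results of these data known. Named genes were the 10 genes, the 3 genes most like each of them and, in each list, genes drawn from the 2 with the smallest CHF p and the 2 with the most counts. Other names, such as those with an interaction p below 0.05, were chosen after their values were seen. Gene positions and overlaps come from the file and from RefSeq for UU_Cfam_GSD_1.0, the assembly behind canFam4.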

Additional observations from a re-analysis of the deposited data

Results flagged for a closer look

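Of 40 comparisons of a dog with the rest of its group of CHF status and sex, over the 10 macrophage genes, 1 stood out, where chance gives about 2. CSF1R in CAV1047 was the lowest of the 6 females of 10y-MMVD-CHF, at 120 CPM (4671 counts) against 227 CPM (14265 counts) in the next dog, CAV1876. The gap took up 0.761 of the range of the group. CAV1047 also had the highest mean of the cardiomyocyte markers of all dogs, 10.6 on the log2 CPM scale. Its part in the low CSF1R level was not tested.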

How the results depend on the processing

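The CHF direction of all 10 macrophage genes was the same under all 10 other settings and in 34 fits that left out a dog. The setting with the human-aligned CD163 feature repeats the main fit for all genes but CD163. None of the genes had an FDR below 0.1 for CHF under any setting or without any 1 dog. None had one for sex under 7 other settings or without any 1 dog, or for the interaction under the same 7 settings, where leaving out single dogs was not run. The number of features called for CHF, 23, was 64 in DESeq2 and 13 with no sex term, and ran from 8 to 28 when a dog was left out, with the lowest count without CAV1519 or without CAV2102. The number of macrophage genes with an unadjusted p below 0.05 for CHF, 2, ran from 1 to 3 when a dog was left out. The interaction gave 0 calls in edgeR and 3 in DESeq2, and the interaction of CD68 reversed to 0.0638 with the cardiomyocyte covariate. The sex difference of MRC1 reversed to -0.0212 without CAV614 and CAV1047. When a dog was left out, the sex differences that reversed ran from -0.0281 to 0.0962 for MRC1, from -0.0801 to 0.000765 for CSF1R and from -0.137 to 0.0569 for TREM2, all close to 0. Of the 30 genes named as most like a macrophage gene, 17 were named again with Pearson's correlation, 14 with group and sex means removed and 19 on residuals from the cardiomyocyte mean. The causes of these changes were not tested. One alternative, the pairs of genes without CAV614 and CAV1047, was chosen after seeing the data. No paired analysis was possible because the replicate numbers only name dogs. MARCO had 2784 counts over 34 dogs, and 6 dogs had 10 or fewer. The part of depth in its spread was not tested. Differences of the size fitted for CD163 and C1QA were not detectable beside the spread between dogs.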
